A study of Mus musculus with 18 samples.

Results

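Malat1, Neat1, Rn7sk, Miat, Sox2ot, Gas5, Snhg1 and Snhg11 were followed across a course of astrocytic differentiation as 8 of the 54838 genes in a table of RNA-sequencing counts. The 8 genes were taken by name as well-known noncoding RNAs, by a rule that sets no threshold on a measured value, though earlier results of these data were known when they were listed. The filter on low counts kept 7 of them among 20067 tested genes, and Snhg11 did not pass it.

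Long noncoding RNAs that stay in the nucleus can build nuclear bodies or hold proteins away from their targets. Malat1 gathers in nuclear speckles, where splicing factors are stored, and Neat1 is the scaffold of paraspeckles. Rn7sk is a small RNA made by RNA polymerase III that keeps the elongation factor P-TEFb inactive. Miat and Sox2ot are long noncoding RNAs known from neural tissue, and the Sox2 gene lies inside the Sox2ot transcription unit. Gas5, Snhg1 and Snhg11 are host genes, whose introns carry small nucleolar RNAs (snoRNAs) that guide the modification of ribosomal RNA.

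The cells were primary neurospheres (NSPs) grown from neural stem cells of the ventricular zone of single wild type C57BL/6J mouse brains at embryonic day 14. NSPs were kept proliferating with EGF, or were moved to serum to differentiate, and were then taken at 24 h and 72 h, each with and without TNF at 50 ng/ml, and at 1 week without TNF. Each of the 6 conditions had 3 libraries, made from total RNA after removal of ribosomal RNA, which keeps transcripts without a poly(A) tail. Libraries held between 12509693 and 22549627 counts. The labels do not say that replicates came from separate animals, so p-values measure the spread between these libraries.

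The labelled states were checked by marker genes. The summed level of 4 proliferation markers was between 1320 and 2131 CPM (counts scaled to a common library size by TMM) in NSPs and between 8.21 and 98.6 CPM in all differentiated libraries. That of 6 neural stem cell markers was between 6360 and 8027 CPM in NSPs and between 3563 and 4547 CPM at 1 week. At 24 h with TNF it was between 5481 and 7079 CPM, which overlapped with NSPs. Within that list, Pax6 and Vim were higher at 24 h than in NSPs (edgeR adjusted p = 5.61e-05 and 0.00415). Nes, Sox2, Fabp7 and Egfr were lower. The astrocyte marker Gfap averaged 27.1 CPM in NSPs, 898 CPM at 24 h, 2429 CPM at 72 h, 489 CPM at 72 h with TNF and 63.3 CPM at 1 week. The summed level of 7 astrocyte markers, Gfap among them, was between 3892 and 4114 CPM in NSPs, between 5246 and 7515 CPM at 72 h, between 3291 and 4669 CPM at 72 h with TNF and between 2463 and 2955 CPM at 1 week, so at 1 week the list lay below NSPs, against the direction of an astrocytic course. The summed level of 5 microglia markers stayed between 1.15 and 3.8 CPM. That of 7 oligodendrocyte lineage markers was between 525 and 582 CPM in NSPs, 144 and 160 CPM at 24 h, 32.8 and 39.8 CPM at 72 h, 63.4 and 108 CPM at 72 h with TNF and 47.5 and 49.8 CPM at 1 week. That of 6 neuron markers was between 17.9 and 35.7 CPM in NSPs, 38.7 and 46.9 CPM at 24 h and 10.4 and 11.5 CPM at 72 h. The part of these cell types in the changes of the members was not tested. In bulk RNA, fewer cells of a type and less RNA per cell cannot be told apart. Replicate 1 stood apart from the other libraries in NSPs, at 24 h with TNF and at 72 h with TNF: chi-square per degree of freedom was 40.5 to 55.4 for pairs with it and 3.71 to 11.1 for the remaining pairs of these groups. The changes of the members that rest most on these libraries are given with and without them.

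Of the 8 RNAs, only Malat1 and Rn7sk were among the genes with the most counts in every library, while Neat1 ranked between 27 and 6735. Malat1 had more counts than any other gene in each of the 18 libraries, and Rn7sk ranked between 2 and 4. Snhg11 had 2 to 11 counts per library, or 0.163 to 0.603 CPM, which goes against the description of these RNAs as abundant. GENCODE M21 also lists Snhg11 as a coding gene. Where the RNAs were in the cell was not measured. The members together took 3.61% ± 0.74 (SD, n = 3) of the counts in NSPs and 5.72% ± 0.627 to 6.62% ± 1.29 in the differentiated groups, and Malat1 with Rn7sk made up almost all of it. Per kilobase of annotated exons, Rn7sk averaged 53926 ± 10537 CPM in NSPs (SD, n = 3), against 2827 ± 500 for Malat1, 68.0 ± 15.3 for Gas5, 26.1 ± 9.51 for Snhg1, 13.7 ± 9.46 for Miat, 2.87 ± 0.309 for Sox2ot and 2.46 ± 0.854 for Neat1. At 24 h, the order per kilobase below Rn7sk and Malat1 was Gas5, Miat, Neat1, Snhg1 and Sox2ot, at 26.7, 24.8, 15.7, 7.16 and 4.30 CPM per kilobase. Per kilobase of the longest transcript alone, Sox2ot was at 14.3 and Snhg1 at 7.79 CPM at 24 h, so the order of these 2 turned.

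Sequences were chosen to show the parts of these RNAs for which a role is known. The start of Rn7sk forms a hairpin that binds HEXIM proteins through GATC motifs, and near its end Malat1 carries an A-rich tract that folds with upstream uridine-rich stretches and shields the RNA from decay. Both were read 5′ to 3′ from GENCODE M21 transcripts on GRCm38, on the minus strand, at chr9:78175524-78175633 and chr19:5795912-5796089. Capitals mark GATC in Rn7sk and the A-rich tract in Malat1.
Rn7sk, first 110 bases: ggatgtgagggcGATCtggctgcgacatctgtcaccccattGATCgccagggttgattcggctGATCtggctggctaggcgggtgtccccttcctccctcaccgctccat
Malat1, bases 6584 to 6761: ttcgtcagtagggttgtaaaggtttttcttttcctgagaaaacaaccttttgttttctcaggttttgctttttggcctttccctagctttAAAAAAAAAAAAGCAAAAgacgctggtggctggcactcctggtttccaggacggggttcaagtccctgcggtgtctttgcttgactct

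GATC occurred 3 times in these 110 bases. Rn7sk is a single 331-base transcript at chr9:78175303-78175633. Of its 257 windows of 75 bases, the read length, 65.0% also occurred in transcripts of 4 other annotated genes, so its count is uncertain to the degree that reads were shared out among them. Those 4 genes were themselves low, with 350 to 1383 counts summed over all libraries. Malat1 is annotated at chr19:5795690-5802672 and Neat1 at chr19:5824708-5845478, both on the minus strand of the same chromosome. Neat1 is listed with 4 transcripts that range up to 20771 bases and were counted as 1 gene, so short and long isoforms cannot be told apart.

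For the host genes, Gas5 and Snhg1, the region around the start site is shown, because such genes are often transcribed from starts with a pyrimidine tract. Sequences run from 250 bases before the start to 50 bases after it, on the plus strand, from RefSeq on GRCm38.p6, at chr1:161034916-161035215 for the second of 2 listed Gas5 starts and chr19:8723237-8723536 for Snhg1. Capitals mark TATAAA or TATATA on either strand and the unbroken run of pyrimidines that begins at the start site.
Gas5: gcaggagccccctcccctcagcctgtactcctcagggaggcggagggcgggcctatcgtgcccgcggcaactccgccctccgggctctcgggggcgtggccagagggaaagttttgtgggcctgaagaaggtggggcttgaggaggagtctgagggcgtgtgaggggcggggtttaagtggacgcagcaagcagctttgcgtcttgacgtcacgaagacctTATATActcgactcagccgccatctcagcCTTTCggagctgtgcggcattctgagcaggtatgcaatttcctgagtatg
Snhg1: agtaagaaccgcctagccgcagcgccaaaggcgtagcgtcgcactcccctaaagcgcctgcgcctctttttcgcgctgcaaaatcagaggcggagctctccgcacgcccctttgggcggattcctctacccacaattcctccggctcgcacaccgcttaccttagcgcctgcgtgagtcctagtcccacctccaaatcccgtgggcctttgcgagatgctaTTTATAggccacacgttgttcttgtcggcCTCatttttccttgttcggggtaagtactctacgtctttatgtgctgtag

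This Gas5 start opened with a C followed by 4 more pyrimidines, which held for 2.51% of 32851 RefSeq start regions, and its region held TATATA, found in 5.67% of them. The Snhg1 start opened with a run of 3 pyrimidines, and its region held TATAAA on the minus strand, a motif found on either strand in 13.6% of regions. The motifs TATAAA and TATATA can overlap. CACGTG, present in 7.15% of regions, was in none of the regions of Malat1, Miat, Gas5, Snhg1 and Snhg11, and Neat1, Rn7sk and Sox2ot had no entry. Of the 16 genes with an entry among Gas5, Snhg1 and 17 other host genes, 3 had a start with C and at least 4 pyrimidines, as had Miat, which is no host gene. Snhg11 and the other Gas5 start, at base 161034601, opened with 0 pyrimidines, and neither region held TATAAA or TATATA. These matches describe letters only.

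**Figure D1:**
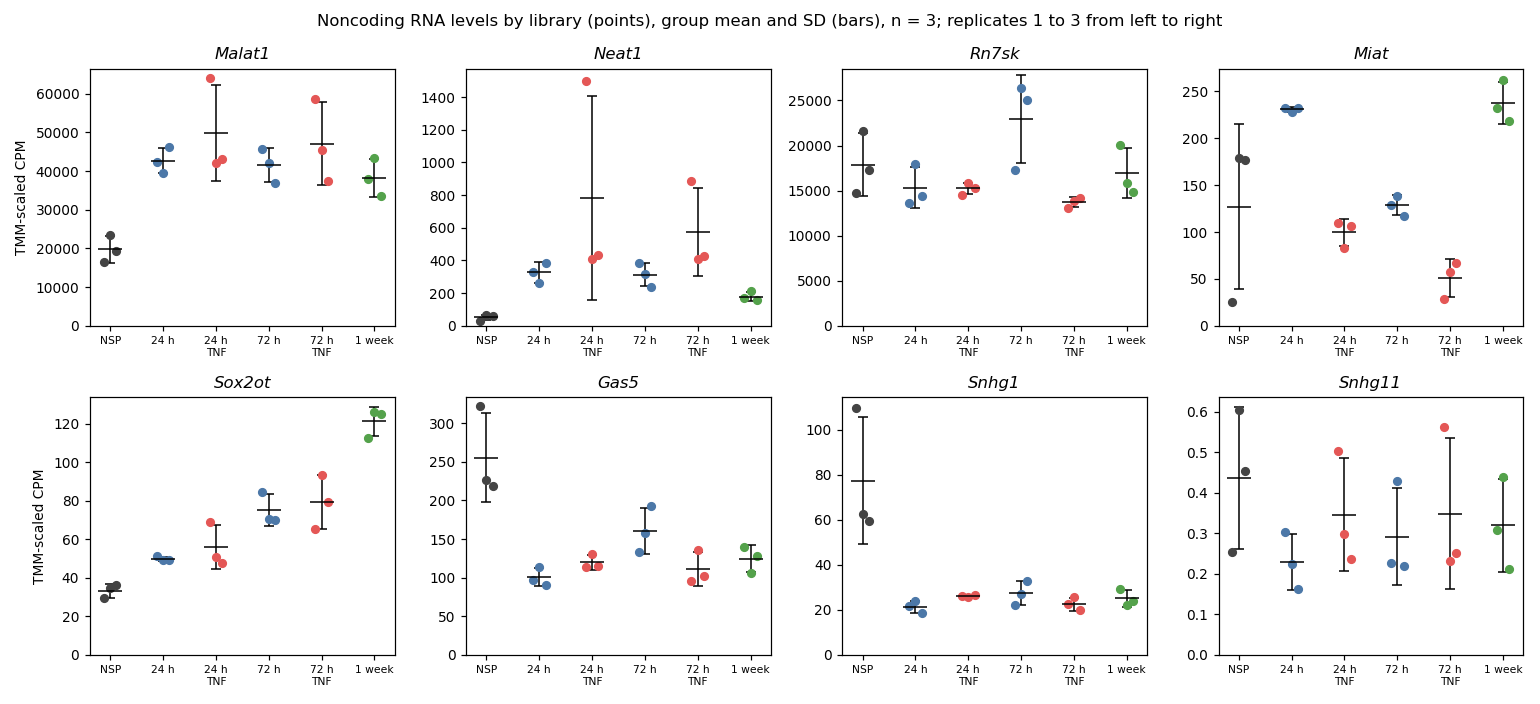
TMM-scaled CPM of the 8 RNAs (vertical axes, linear from 0) in the 18 libraries, by condition; points are libraries and bars are the mean and SD of 3. NSPs had the lowest mean of Malat1, Neat1 and Sox2ot and the highest of Gas5 and Snhg1, and the Neat1 value of 1501 CPM at 24 h with TNF came from replicate 1.

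Differentiation from NSPs was compared first. At 24 h, 3 of the 7 tested RNAs had risen (Malat1, Neat1 and Sox2ot) and 2 had fallen (Gas5 and Snhg1). Of all 20067 tested genes, 27.2% were called higher and 25.5% lower in that comparison, by edgeR's quasi-likelihood test at a Benjamini-Hochberg adjusted p under 0.05, so a change by itself did not set these RNAs apart. The same 3 were higher and the same 2 lower at 72 h, where 28.1% of all genes were called higher and 27.2% lower, and at 1 week, where 29.6% were higher and 29.1% lower. These 3 comparisons share the NSP libraries. The median log2 change of the 7 RNAs was 0.58 at 24 h, against 0.06 over all genes.

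Malat1 stood at 16428, 23386 and 19407 CPM in NSPs and at 42253, 39629 and 46115 CPM at 24 h. All differentiated libraries lay above all NSP libraries, and the lowest of them was a 1 week library at 33548 CPM. The rise at 24 h was 1.11 ± 0.20 (log2 change ± SE, edgeR adjusted p = 0.000189), which is 2.16-fold. It was 1.07 ± 0.20 at 72 h (edgeR adjusted p = 0.000194) and 0.95 ± 0.20 at 1 week (edgeR adjusted p = 0.000541). Without NSP replicate 1, the lowest library, the rise at 24 h was 0.992 (edgeR adjusted p = 0.00144). After 24 h the groups of Malat1 overlapped with their neighbours in level, and no later step passed the test.

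Neat1 had 30.9, 64.1 and 58.4 CPM in NSPs, 331, 262 and 387 CPM at 24 h, 383, 315 and 239 CPM at 72 h, and 169, 210 and 158 CPM at 1 week. No NSP library overlapped with a differentiated one. The rise at 24 h was 2.67 ± 0.43 on the log2 scale (edgeR adjusted p = 5.7e-05), or 6.38-fold, and at 1 week it was 1.81 ± 0.42 (edgeR adjusted p = 0.00121), or 3.5-fold. Without NSP replicate 1, the lowest library, the rise at 24 h was 2.41 ± 0.482 (edgeR adjusted p = 0.000618). Libraries at 1 week were all below those at 72 h, but this step of -0.80 ± 0.41 did not pass (edgeR adjusted p = 0.296). Without replicate 1 of every group it was -0.57 and passed (edgeR adjusted p = 0.0418), as it did with only the groups compared, at -0.81.

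A coding gene next to Neat1 did not show these rises. Frmd8, which lies 4224 bases from Neat1 on the same strand, changed by 0.20 at 24 h on the log2 scale (edgeR adjusted p = 0.318) and was lower at 1 week by -0.56 (edgeR adjusted p = 0.00671).

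The partner proteins of these nuclear bodies were described by lists. Of 14 genes of paraspeckle proteins, 11 fell and 1 rose at 24 h against NSPs, where 25.5% of all genes fell and 27.2% rose, with a median log2 change of -0.65 against 0.06 over all genes. The lower ones included Sfpq, an RNA-binding protein that paraspeckles need, at -1.22 ± 0.10 (edgeR adjusted p = 1.89e-08), and Nono, its partner, at -0.85 ± 0.17 (edgeR adjusted p = 0.000449). Of 14 genes of nuclear speckle proteins, 10 fell and 1 rose, beside the same shares of all genes, with a median of -0.59. The splicing factor Srsf7 had the strongest fall, -1.36 ± 0.18 (edgeR adjusted p = 5.27e-06), and the scaffold Son rose by 0.27 ± 0.10 (edgeR adjusted p = 0.0271). Neat1 and Malat1 rose where most genes of both lists fell. With TNF, the median log2 changes of both lists were between -0.08 and -0.02 at the 2 times.

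Sox2ot rose at each step without TNF. It had 29.3, 34.5 and 36.1 CPM in NSPs, 51.2, 49.1 and 49.2 CPM at 24 h, 84.66, 70.65 and 69.97 CPM at 72 h, and 113, 126 and 125 CPM at 1 week. These 4 groups followed each other without overlap. The steps were 0.58 ± 0.15 (edgeR adjusted p = 0.00358), 0.59 ± 0.15 (edgeR adjusted p = 0.00667) and 0.69 ± 0.15 (edgeR adjusted p = 0.00701) on the log2 scale. The last of these calls was lost without 72 h replicate 2, at 0.65 (edgeR adjusted p = 0.0503). Over the whole course the rise was 1.86 ± 0.15 (edgeR adjusted p = 7.68e-09), or 3.64-fold.

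Sox2, which encodes a transcription factor of neural stem cells and lies at chr3:34650405-34652461 within the Sox2ot span of chr3:34104270-34682619, moved in both directions. It had 247, 380 and 363 CPM in NSPs and 261, 198 and 264 CPM at 1 week. It was lower than NSPs at 24 h by -0.66 (edgeR adjusted p = 0.00287), rose by 0.58 from 24 h to 72 h (edgeR adjusted p = 0.0151), when Sox2ot also rose, and was lower than NSPs at 1 week by -0.46 (edgeR adjusted p = 0.0252). The groups at 1 week and in NSPs overlapped. Other noncoding genes of the span were higher at 1 week than in NSPs: Gm42692 averaged 1.22 CPM in NSPs and 10.95 CPM at 1 week, a log2 change of 3.16 (edgeR adjusted p = 4.53e-08). Gm42205 and Gm42695, on the other strand, averaged 0.524 and 0.593 CPM in NSPs and changed by 3.46 and 3.42 (edgeR adjusted p = 8.65e-06 and 2.6e-05). None of these 3 passed edgeR's test between 24 h and 72 h, with changes of 0.60, -0.01 and 0.01 (edgeR adjusted p = 0.135, 0.992 and 0.993). Gm42693, on the other strand, rose at that step by 0.56 (edgeR adjusted p = 0.0471) and was higher than NSPs at 24 h, 72 h and 1 week by 0.71, 1.26 and 0.80 (edgeR adjusted p = 0.00875, 3.91e-05 and 0.00268). Gm20515, also on the other strand and with only 125 counts in all libraries, was lower at 1 week by -1.68 (edgeR adjusted p = 0.00857). The strand setting of the counting is not given in the sources used here, so reads of genes that overlap on both strands cannot be told apart.

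**Figure D2:**
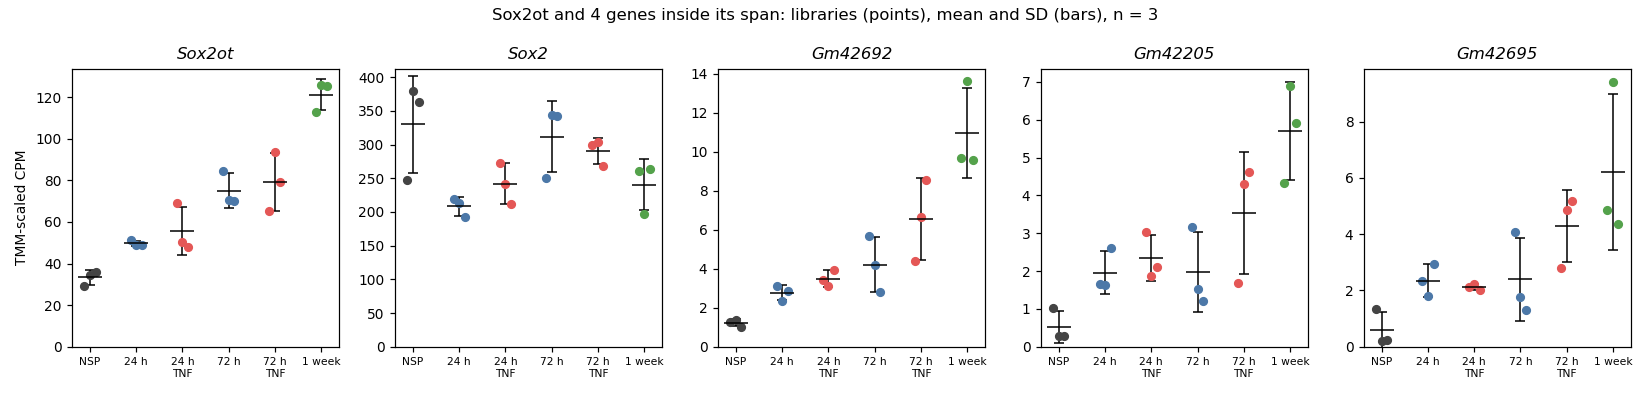
TMM-scaled CPM (vertical axes, linear from 0) of Sox2ot and of 4 genes inside its span by condition; points are libraries and bars are the mean and SD of 3. Sox2ot climbed from a mean of 33.3 CPM in NSPs to 121 CPM at 1 week, while Sox2 went from 330 to 241 CPM.

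Gas5 and Snhg1 fell on the first day and stayed below NSPs. Gas5 had 322, 227 and 219 CPM in NSPs and 97.1, 114 and 90.6 CPM at 24 h, and no differentiated library reached the lowest NSP library. Its change at 24 h was -1.35 ± 0.18 (edgeR adjusted p = 6.1e-06), a 2.54-fold lower level. At 72 h it had 133, 157 and 193 CPM, a partial return of 0.68 ± 0.18 from 24 h (edgeR adjusted p = 0.00793) that left it lower than NSPs by -0.67 ± 0.18 (edgeR adjusted p = 0.00337). Without 72 h replicate 3 the return was 0.53 and did not pass (edgeR adjusted p = 0.0572). At 1 week it was lower than NSPs by -1.04 ± 0.18 (edgeR adjusted p = 6.07e-05).

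Snhg1 had 110, 62.7 and 59.5 CPM in NSPs and 21.7, 23.7 and 18.4 CPM at 24 h, a change of -1.86 ± 0.21 (edgeR adjusted p = 9e-07), or 3.63-fold lower. The highest of the 15 differentiated libraries had 32.7 CPM. At 72 h and 1 week the changes from NSPs were -1.50 ± 0.21 and -1.62 ± 0.21 (edgeR adjusted p = 5.95e-06 and 2.07e-06). NSP replicate 1 held the highest value of both RNAs. Without it the changes at 24 h were -1.15 for Gas5 and -1.53 for Snhg1 (edgeR adjusted p = 3.62e-05 and 1.23e-06). Without replicate 1 of every group, Gas5 at 72 h was lower than NSPs by -0.34 with an edgeR adjusted p of 0.0841, which did not pass, and the other falls of Gas5 and Snhg1 from NSPs did.

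Other snoRNA host genes were counted as a list. Of 17 listed, 12 were tested, and 9 of these fell at 24 h, where 25.5% of all genes did, with a median log2 change of -1.44 against 0.06 over all genes. Snhg5 fell most, by -2.30 ± 0.24 (edgeR adjusted p = 3.24e-07), with 70.1, 40.8 and 36.9 CPM in NSPs and 9.06, 12.1 and 8.63 CPM at 24 h. Zfas1 had 64.3, 62.5 and 61.4 CPM in NSPs and 17.1, 18.5 and 15.3 CPM at 24 h, so its fall of -1.89 ± 0.18 (edgeR adjusted p = 9.2e-08) did not rest on replicate 1. Between 24 h and 72 h, 3 of the 12 rose, where 12.2% of all genes did, of which Snhg20 changed most, by 0.98 ± 0.23 (edgeR adjusted p = 0.00394).

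The proteins that bind box C/D snoRNAs moved the same way. All 6 tested genes of this list fell at 24 h, where 25.5% of all genes fell and 27.2% rose, with a median log2 change of -1.43 against 0.06 over all genes. Nop56, a core protein of these particles, fell by -2.20 ± 0.25 (edgeR adjusted p = 1.07e-06), and Fbl, the enzyme that methylates ribosomal RNA, by -1.32 ± 0.19 (edgeR adjusted p = 1.26e-05). Spliced host RNAs are known targets of nonsense-mediated decay, and of 10 genes of that pathway 5 fell and 1 rose, with a median of -0.40, beside the same shares and median of all genes. Upf2 was the gene that rose, by 0.47 ± 0.13 (edgeR adjusted p = 0.00539), and Smg9 was among the falling ones at -0.71 ± 0.16 (edgeR adjusted p = 0.000981). The fall of proliferation markers given above moved with these lists, and its part in them was not tested.

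The snoRNAs themselves could not be followed. All 10 annotated snoRNA genes inside Gas5, all 8 inside Snhg1 and both inside Snhg11 had 0 counts in all libraries. Some Gas5 and Snhg1 transcripts are annotated across these introns, and a read that lies in 2 genes may not have been counted for either, which was not tested. For each host, 1 coding gene beside its start did not pass the test at 24 h: Zbtb37, which overlaps the start of Gas5 on the other strand, changed by 0.24 (edgeR adjusted p = 0.106), and Slc3a2, 106 bases from Snhg1 on the other strand, by -0.26 (edgeR adjusted p = 0.129). Both were higher than NSPs at 72 h, by 0.45 and 0.44 (edgeR adjusted p = 0.00384 and 0.0126). At 1 week they were higher by 0.33 and 0.49 (edgeR adjusted p = 0.0231 and 0.0062). Wdr74, 9384 bases from the end of Snhg1 on the same strand, was low, with 363 counts in all libraries and 2.43 CPM in NSPs. It fell with Snhg1, by -1.77 at 24 h, -1.23 at 72 h and -1.50 at 1 week against NSPs (edgeR adjusted p = 0.000409, 0.0041 and 0.000808).

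**Figure D3:**
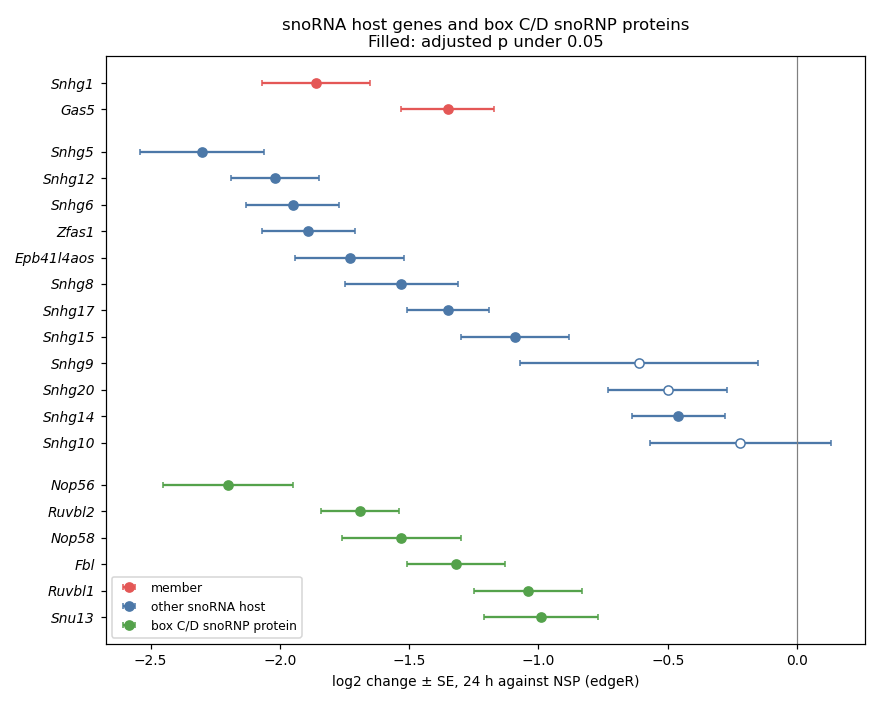
Log2 change from NSPs to 24 h (horizontal axis, ± SE, edgeR) of Gas5, Snhg1, 12 other snoRNA host genes and 6 genes of box C/D snoRNP proteins; filled points passed an adjusted p under 0.05. All 20 lie below 0, from -2.30 for Snhg5 to -0.22 for Snhg10, and 3 host genes are open.

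Rn7sk did not pass the test against NSPs at any time without TNF. It had 14695, 21595 and 17259 CPM in NSPs, 13615, 17918 and 14421 CPM at 24 h, 17326, 26357 and 25071 CPM at 72 h, and 20091, 15846 and 14834 CPM at 1 week. Each of these groups overlapped with NSPs. The difference at 72 h was 0.36 ± 0.18 (edgeR adjusted p = 0.102). It passed without NSP replicate 2, at 0.52, without 72 h replicate 1, at 0.53, and without replicate 1 of every group, at 0.41 (edgeR adjusted p = 0.0364, 0.0197 and 0.0305). The step from 24 h to 72 h was 0.58 ± 0.18 (edgeR adjusted p = 0.0254), with overlapping libraries, and this call was lost when either of 2 libraries at 24 h or either of 2 at 72 h was left out, with an edgeR adjusted p between 0.077 and 0.123. Of all genes, 12.2% were called higher and 12.6% lower between 24 h and 72 h, where Gas5, Rn7sk and Sox2ot were the 3 RNAs called higher. Between 72 h and 1 week 2.68% were called higher and 3.96% lower, and Sox2ot alone was called.

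The proteins of the Rn7sk particle moved in both directions at 24 h: of 10 tested, 3 rose and 4 fell, where 27.2% of all genes rose and 25.5% fell, and their median log2 change was -0.24 against 0.06 over all genes. Larp7, which binds the end of Rn7sk, fell by -0.74 ± 0.20 (edgeR adjusted p = 0.0053), and Hexim1, which blocks P-TEFb, rose by 0.32 ± 0.11 (edgeR adjusted p = 0.0235). The helicase Ddx21, which frees P-TEFb from the particle, fell by -1.71 ± 0.23 (edgeR adjusted p = 7.11e-06). Of 18 genes of RNA polymerase III and its factors, 9 fell and 2 rose, beside the same shares of all genes, among them the subunit Polr3k at -1.93 ± 0.17 (edgeR adjusted p = 5.45e-08) and the factor Brf1 at 0.38 ± 0.10 (edgeR adjusted p = 0.00311).

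Exposure to TNF was compared with no TNF at the same time. The response itself was present: the summed level of 4 known TNF targets was between 19.4 and 31.2 CPM in the libraries without TNF and between 146 and 175 CPM in those with it, and most of it was Nfkbia, an inhibitor of NF-kB. At 24 h none of the 7 RNAs passed edgeR's test, and DESeq2 also called 0. Of all genes 2.18% were called higher and 1.32% lower. At 72 h, 1 RNA was lower, Rn7sk, where 4.35% of all genes were called higher and 5.21% lower. These last figures depend on the scaling: 45.5% of the genes called at 72 h were higher with TMM and 59.0% with library totals alone.

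Rn7sk at 72 h had 17326, 26357 and 25071 CPM without TNF and 13088, 13850 and 14232 CPM with it. The groups did not overlap, and those with TNF were much closer together. The change was -0.74 ± 0.18 (edgeR adjusted p = 0.0144), a 1.67-fold lower level. Leaving out 72 h replicate 2 or 3 ended the call, at -0.63 and -0.67 (edgeR adjusted p = 0.0879 and 0.0667). At 24 h the means were 15318 and 15236 CPM, and the difference between the effects at the 2 times, -0.73 ± 0.26, did not pass (edgeR adjusted p = 0.298).

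Other small structured RNAs were counted as a list at 72 h with TNF. Of 8 listed, 7 were tested, and 2 of these fell, where 5.21% of all genes did, with a median log2 change of -0.78 against -0.01 over all genes. Rn7s2, an RNA of the signal recognition particle, fell by -0.95 ± 0.29 (edgeR adjusted p = 0.0428), from 8.62, 9.68 and 11.1 CPM to 4.33, 4.81 and 6.06 CPM. The Y RNA Rny3 fell by -0.82 ± 0.26 (edgeR adjusted p = 0.0487), from 62.7, 102 and 157 CPM to 49.4, 60.5 and 72.1 CPM, and its groups overlapped. The other 5 had log2 changes between -0.97 and -0.49 that did not pass. Small RNAs are caught only in part by such libraries, RNA quality was not given for each library, and the part of either in these values was not tested.

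**Figure D4:**
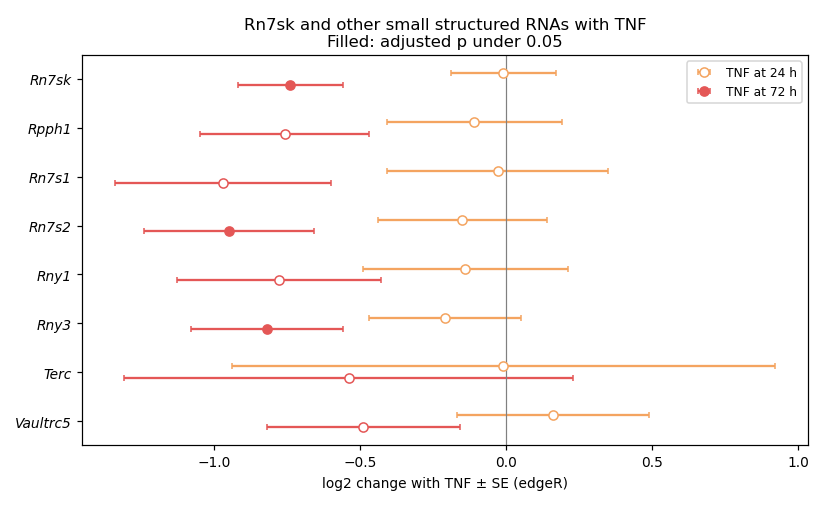
Log2 change with TNF (horizontal axis, ± SE, edgeR) of Rn7sk and 7 other small structured RNAs at 24 h and 72 h; filled points passed an adjusted p under 0.05. At 72 h all 8 points lie below 0, between -0.97 and -0.49, and 3 are filled.

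Miat was lower in every library with TNF than in any library without it at the same time, although the test over all groups did not call it. At 24 h it had 232, 228 and 232 CPM without TNF and 110, 83.1 and 107 CPM with it, and at 72 h 129, 139 and 118 CPM against 28.8, 57.8 and 67.2 CPM. The groups did not overlap at either time. The changes were -1.21 ± 0.43 (edgeR adjusted p = 0.157) and -1.33 ± 0.43 (edgeR adjusted p = 0.0598), where all groups share an estimate of the spread. That estimate includes NSPs, in which Miat had 25.6, 179 and 176 CPM. Without NSP replicate 1 the changes were -1.21 ± 0.205 (edgeR adjusted p = 0.00182) and -1.33 ± 0.208 (edgeR adjusted p = 0.000354), and with only the groups compared they passed as well (edgeR adjusted p = 0.00198 and 0.0112).

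At 24 h Miat lay above all NSP libraries, but the difference of 0.86 ± 0.42 did not pass (edgeR adjusted p = 0.0949) and was 0.37 without NSP replicate 1 (edgeR adjusted p = 0.186). It passed without NSP replicate 2, at 1.18, and without replicate 1 of every group, at 0.36 (edgeR adjusted p = 0.0497 and 0.0424). At 1 week the difference of 0.90 ± 0.42 (edgeR adjusted p = 0.0742) passed without NSP replicate 2, at 1.23, without NSP replicate 3, at 1.21, and without replicate 1 of every group, at 0.45 (edgeR adjusted p = 0.0378, 0.0423 and 0.0124). It did not pass when NSP replicate 1 alone was left out, in which Miat had 25.6 CPM against 179 and 176 CPM in the other NSP libraries. Across time, the Miat levels without TNF were 231 ± 2.44 CPM at 24 h, 129 ± 10.6 CPM at 72 h and 238 ± 22.7 CPM at 1 week (SD, n = 3). The libraries at 72 h lay below those of both other times. The steps of -0.84 ± 0.42 and 0.89 ± 0.42 did not pass (edgeR adjusted p = 0.162 and 0.258), and both passed without NSP replicate 1 (edgeR adjusted p = 0.00469 and 0.00975). Miat at chr5:112213228-112229395 on the minus strand is overlapped on the other strand by Gm26953, which had 279 counts in all libraries and averaged 1.93 CPM at 24 h and 0.593 CPM at 24 h with TNF. Its change of -1.67 did not pass (edgeR adjusted p = 0.0951).

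Neat1 had 331, 262 and 387 CPM at 24 h and 1501, 406 and 436 CPM with TNF. At 72 h it had 383, 315 and 239 CPM, and 886, 410 and 425 CPM with TNF. All TNF libraries lay above those without TNF at the same time, and replicate 1 lay far above the other replicates in both TNF groups. The changes of 1.26 ± 0.41 and 0.88 ± 0.41 did not pass (edgeR adjusted p = 0.115 and 0.186). Without TNF replicate 1 of the same time they were 0.349 ± 0.314 and 0.418 ± 0.418 (edgeR adjusted p = 0.759 and 0.632). The change at 24 h passed when TNF replicate 3 was left out, at 1.54 (edgeR adjusted p = 0.0471), and that at 72 h passed without replicate 1 of every group, at 0.60 (edgeR adjusted p = 0.0286). In these 2 libraries mitochondrial ribosomal RNAs and Gm26917 took 4.89% and 6.96% of counts, against 2.26% to 2.93% in the other TNF libraries. Replicate 3 at 24 h without TNF, with 387 CPM of Neat1, had 5.7%. Malat1 was also highest in the 2 TNF libraries, at 64136 and 58548 CPM, and its groups with and without TNF overlapped at both times. The part of RNA quality in these values was not tested.

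The host genes Gas5 and Snhg1 did not pass the test at either time. At 24 h Gas5 had 97.1, 114 and 90.6 CPM without TNF and 114, 131 and 115 CPM with it, a change of 0.25 ± 0.18 (edgeR adjusted p = 0.6), with no overlap by a narrow margin. At 72 h it had 133, 157 and 193 CPM, and 95.7, 136 and 102 CPM with TNF, a change of -0.54 ± 0.18 that did not pass by edgeR (adjusted p = 0.0622) and did by DESeq2 (adjusted p = 0.0447). Leaving out NSP replicate 1, 72 h replicate 1 or 72 h TNF replicate 2 also brought it past the threshold, at -0.54, -0.66 and -0.71 (edgeR adjusted p = 0.0312, 0.0271 and 0.0278). The difference between the 2 effects was -0.79 ± 0.25 (edgeR adjusted p = 0.227). Snhg1 had 21.7, 23.7 and 18.4 CPM at 24 h and 26.3, 25.8 and 26.6 CPM with TNF, a change of 0.30 ± 0.21 that did not pass (edgeR adjusted p = 0.596), and its groups at 72 h overlapped. None of the 7 RNAs passed edgeR's test of the interaction of TNF with time, and DESeq2 called 0. By edgeR, 0.135% and 0.324% of all genes were called higher and lower.

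Between 24 h and 72 h with TNF, Sox2ot was the 1 RNA called, at 69.0, 50.6 and 47.9 CPM and then 65.4, 93.4 and 79.2 CPM. Its groups overlapped, and the rise of 0.51 ± 0.15 (edgeR adjusted p = 0.0292) was lost when TNF replicate 2 or 3 of either time was left out (edgeR adjusted p between 0.0764 and 0.154). Of all genes, 5.38% were called higher and 7.93% lower there. Miat was lower at 72 h with TNF than at 24 h with TNF by -0.96 ± 0.43, without overlap, and did not pass (edgeR adjusted p = 0.153). It passed without NSP replicate 1, at -0.96, and without replicate 1 of every group, at -0.57 (edgeR adjusted p = 0.00429 and 0.00975). With and without TNF, Sox2ot averaged 55.8 and 49.8 CPM at 24 h and 79.3 and 75.1 CPM at 72 h, with overlapping libraries at both times.

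**Figure D5:**
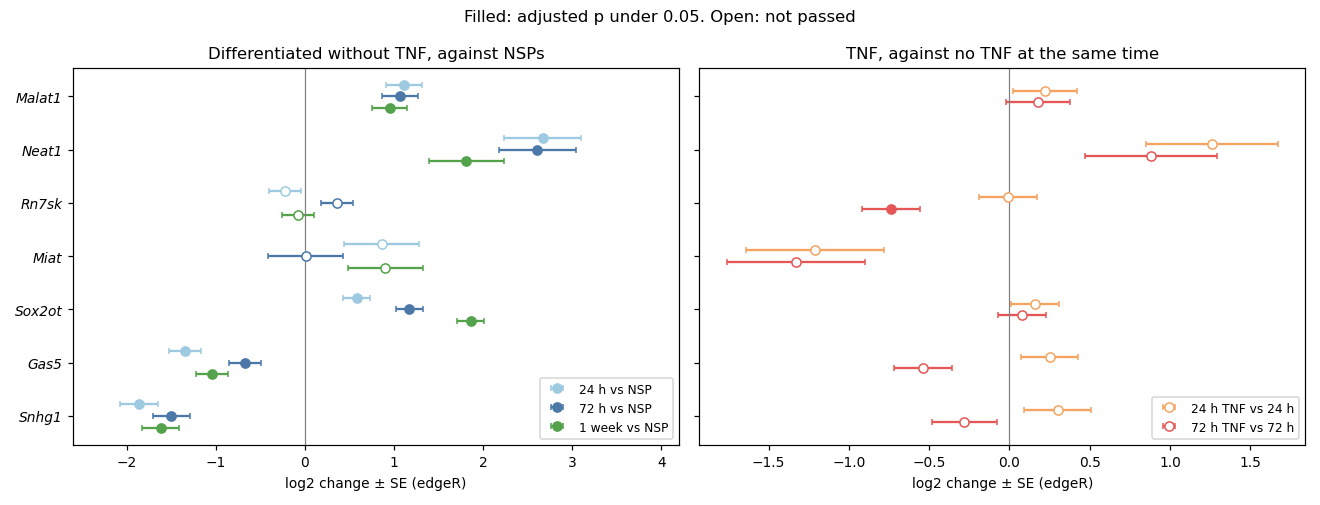
Log2 change ± SE (horizontal axes, edgeR) of the 7 tested RNAs against NSPs at 3 times without TNF (left) and with TNF against without (right); filled points passed an adjusted p under 0.05. Malat1, Neat1 and Sox2ot lie above 0 and Gas5 and Snhg1 below 0 at all 3 times, and Rn7sk at 72 h is the only filled point of the right panel.

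Among 12 other tested long noncoding RNAs, 4 rose and 5 fell at 24 h against NSPs, where 27.2% and 25.5% of all genes did. Dlx6os1, an antisense RNA of the Dlx5 and Dlx6 locus, rose most, by 1.41 ± 0.49 (edgeR adjusted p = 0.0221), from a low 0.386 to 1.04 CPM. Pvt1, a neighbour of Myc, fell by -1.29 ± 0.27 (edgeR adjusted p = 0.000588). Pvt1 was also the one RNA of this list called with TNF, higher by 1.11 ± 0.27 at 24 h and 1.05 ± 0.26 at 72 h (edgeR adjusted p = 0.0239 and 0.0166).

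The genes whose log2 CPM over the 18 libraries was most like that of each RNA are given as a description, since all libraries of a condition share its state. Malat1 and Neat1 had a Pearson r of 0.96 with each other, and Gas5 and Snhg1 of 0.94. Among 16448 genes, Malat1 was most like Hivep2, Gm16958 and Rb1 (r = 0.97, 0.964 and 0.962), and Neat1 like Atp2b4, Abcc5 and Gm37368 (r = 0.976, 0.965 and 0.965). Sox2ot was most like Gm23105, Crim1 and Cutal (r = 0.97, 0.962 and 0.961). Gas5 was most like the splicing factor Srsf7, Pes1 and Impdh2 (r = 0.979, 0.961 and 0.957), and Snhg1 like the host gene Snhg5, Tipin and Hspa14 (r = 0.981, 0.979 and 0.976). Rn7sk and Miat had looser company: Rn7sk was most like Bloc1s1, Scarna13 and Ascc1 (r = 0.895, 0.893 and 0.892), and Miat like Akap8l, Abat and Col11a2 (r = 0.889, 0.882 and 0.862).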

How the data were processed

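Total RNA was extracted with TRIzol and DNase, depleted of ribosomal RNA and made into stranded libraries, with RNA quality given as a range over all samples. The authors deposited raw counts per gene, made with STAR, SAMtools and featureCounts after Trim Galore and FastQC, per the labels on mm10. Tool versions, how strand was set in counting and how reads lying in several genes were treated are not given in the sources used here. All 18 columns were used; the third 72 h column carries the number 4 in the table and 3 in its label. Gene names and positions came from GENCODE M21.

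Genes were filtered with filterByExpr, scaled by TMM and fitted over all 18 libraries with edgeR 4.0.16 (quasi-likelihood test, R 4.3.3, limma 3.58.1). P-values were adjusted by Benjamini-Hochberg over 20067 genes, and 0.05 was the threshold. Standard errors (SE) are the log2 change divided by the square root of its F statistic. Tested on simulated counts, the fit recovered most of the known changes, which were put into well-counted genes with 1 spread for all. These changes were larger than many changes of the members, and outlying replicates were not simulated, so the simulation does not cover such cases. DESeq2 1.42.0 was an alternative, beside other scalings, filters, a replicate block, a log2 limit of 1 and each library left out. CPM were computed from TMM-scaled library sizes, so values are relative to each library. The depth of 12509693 to 22549627 counts covers counting error only.

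The members and lists were chosen with earlier results of these data known, so no test was run over a list. The text names every member, its overlapping or nearest genes, the 3 genes most like it (mean of at least 1 CPM), and up to 4 genes a list; a few genes that this rule names are not reported here. To look for pairing, deviations of log2 CPM from the group mean were correlated between libraries over genes. For same-numbered libraries these correlations were above 0.1 in every pair only between 24 h and 72 h with TNF (0.291, 0.255 and 0.266), which the data alone show.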

Additional observations from a re-analysis of the deposited data

How the results depend on the processing

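Under RLE scaling, library totals, both other filters and the replicate block with all 18 libraries, the rises of Malat1, Neat1 and Sox2ot and the falls of Gas5 and Snhg1 from NSPs kept their direction and their side of the threshold. Library totals moved the median log2 change of all genes at 1 week from 0.059 to 0.174, and member changes are read against that shift. With a log2 change of at least 1 required, 0 members were called in 72 h against 24 h, 1 week against 72 h, TNF at 72 h and 72 h against 24 h with TNF. Against NSPs this limit ended the calls of Sox2ot at 24 h (0.58), Gas5 at 72 h (-0.67) and Malat1 at 1 week (0.95). With only the groups compared, the counts were 3 for 1 week against 72 h, 1 for TNF at 24 h and 0 for 72 h against 24 h with TNF. For TNF at 72 h this setting called Miat, as given above, which the main fit did not call. DESeq2 gave 2 for TNF at 72 h, where it called 2244 of 20120 genes. The replicate block also gave 2 there, with Miat at -1.40 (edgeR adjusted p = 0.046), added Miat at 1 week against NSPs, 1.03 (edgeR adjusted p = 0.0427), and changed no other call; Sox2ot stayed called between 24 h and 72 h with TNF. A replicate block with the third 72 h library unpaired, chosen after seeing the data, gave 1 member in 72 h against 24 h and 0 in 1 week against 72 h, TNF at 72 h and 72 h against 24 h with TNF.

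Leaving out 1 library, or replicate 1 of every group (chosen after seeing the data), gave 5 to 6 members called in each comparison with NSPs, 1 to 5 in 72 h against 24 h, 0 to 5 in 1 week against 72 h, 0 to 1 for TNF at 24 h, 0 to 4 for TNF at 72 h and 0 to 2 in 72 h against 24 h with TNF. The shares of all genes called in these settings are not given here, so these counts are not read as a result about the members. The Neat1 change between 24 h and 72 h with TNF ran from -0.88 to 0.49, and its interaction with time from -0.84 to 0.53. Of the 63 member changes, 19 were under 0.25 on the log2 scale and not called, and 15 of these changed sign in some setting, so no direction is given for them. One of them was called once: without replicate 1 of every group, Miat at 72 h was lower than in NSPs by -0.467 (edgeR adjusted p = 0.0128). Per kilobase of the longest transcript, mean levels rose to 19.8 for Sox2ot, 56.9 for Gas5 and 0.056 for Snhg11. Without the 100 other genes with the most counts, the members' share was 7.01% at 24 h, 7.69% at 72 h, 7.68% at 72 h with TNF and 6.70% at 1 week. Over all genes, 92 were called for the interaction, 239 by DESeq2, 56 with 10 counts in every library and 38 over the groups compared. Over those groups 828 against 2670 genes were called between 24 h and 72 h with TNF, 1277 against 1919 for TNF at 72 h and 2001 against 1331 for 1 week against 72 h. With the third 72 h library unpaired the counts were 24 for the interaction, 986 for TNF at 72 h, 617 for 1 week against 72 h and 3286 against 4970 for 72 h against 24 h. With a log2 change of at least 1, the interaction aside, counts ran from 373 for TNF at 24 h, against 703, to 7020 for 1 week against NSPs, against 11766. The cause of these differences was not tested. At 2 to 11 counts a library, Snhg11 was too low to be tested.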
